A study of Rattus norvegicus with 6 samples.

Results

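The transcription factor p53 is held low in unstressed cells and accumulates after DNA damage, when it binds response elements near its target genes and raises their transcription. Beside the well known targets that stop the cell cycle, feed back on p53 or belong to the BCL2 family, p53 controls a looser group of effector genes whose products act on RNA, DNA fragments, microtubules, nuclear bodies, membranes and redox state. The data on 10 such genes, Zmat3, Aen, Ei24, Tp53inp1, Gtse1, Perp, Rprm, Tp53i3, Ptp4a3 and Pml, are described here. They were chosen by gene symbol, and each matched 1 of the 18930 gene rows of the count table.

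RNA was sequenced from NRK-52E cells, an established epithelial line of wild-type genotype from the rat kidney. The STZ group held 3 samples of cells given 10 mM of streptozotocin, a glucose-linked nitrosourea that alkylates DNA, for 24 h, and the Control group held 3 samples given vehicle. All 6 samples come from 1 cell line at 1 dose and 1 time, and the sources do not say whether the samples of a group were separate cultures, so the p-values measure the spread between these samples. Total counts ran from 10430924 to 15191349 per sample. Levels are given as CPM (counts per 1000000 counts of the library) after scaling with the TMM method, and fold changes compare STZ with Control by the quasi-likelihood test of edgeR, with p adjusted over the 11870 genes that passed its filter on low counts.

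The kidney epithelial label was set against marker genes. Krt8, a simple epithelial keratin, was at 1147 ± 40.6 CPM in Control (SD, n = 3), whereas Krt18, Cdh16 and Pax8 each had 4 or fewer reads per sample and Cdh1 had 16 to 35. Of 7 proximal tubule markers, Aqp1 alone passed the filter and the other 6 had at most 10 reads. The endothelial and leukocyte markers Cdh5, Pecam1 and Ptprc never had more than 2 reads, and Cd68 had 7 to 29. Epcam and Krt19 had no row in the count table. Mesenchymal markers were expressed too, with Control means of 1999 ± 106 CPM for Vim (SD, n = 3), 52.7 for Acta2, 30.2 for Col1a1 and 19.6 for Pdgfrb. The markers thus did not all go with the epithelial label. Krt8 rose with STZ by 0.48 on the log2 scale, Cdh1 fell by 0.69 and Aqp1 fell by 1.25. The 4 mesenchymal markers all fell, with a median log2 fold change of -0.24. The part of these shifts in the results below was not tested.

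Of the 10 p53 effector genes, 6 passed the filter and all 6 rose with STZ at an adjusted p under 0.05, a call made in this direction for 25.9% of all genes tested. They were Tp53inp1, Aen, Zmat3, Gtse1, Ei24 and Pml. In each of them all STZ samples lay above all Control samples, which was so for 28.6% of genes tested. Tp53inp1 and Aen also passed a log2 fold change of 1, as 2.26% of genes tested did in the upward direction. No effector gene fell, a call made for 25.1% of genes tested. With unadjusted p under 0.05, 0 of the 6 were lower by edgeR, DESeq2 or limma-voom. That follows from the 6 rises in the same samples and is not further evidence. The other 4 genes, Perp, Rprm, Tp53i3 and Ptp4a3, had too few reads in either group to be tested. The median log2 fold change of the 6 genes was 0.89, against -0.01 over all genes tested. A filter on low counts keeps genes that are well expressed in at least 1 group, so these counts describe the 6 genes only. The effector genes were chosen with earlier results of these samples known, so their rise is not independent evidence of direction.

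Promoter sequence was at hand for 6 of the 10 genes, and it is shown for Aen, Gtse1, Ei24 and Pml, the expressed ones among them, because they rose together and each holds a match to the p53 half-site. This half-site is the 10-base consensus that p53 binds, and a full response element is made of a pair of them. The consensus is its own reverse complement, so 1 scan covers both strands. Each sequence is the RefSeq promoter of the GRCr8 build, 250 bases before to 50 after the annotated start, written 5′ to 3′ on the strand of the gene. The windows are chr1:142224283-142224582 (+) for Aen, chr7:118829923-118830222 (+) for Gtse1, chr8:44699322-44699621 (-) for Ei24 and chr8:67554839-67555138 (-) for Pml. The counts were made on the older Rnor6 build, and no position was carried between the builds. Capitals mark the exact half-sites, and in Gtse1 and Pml also every copy with 1 mismatch within 13 bases of the exact one.
Aen: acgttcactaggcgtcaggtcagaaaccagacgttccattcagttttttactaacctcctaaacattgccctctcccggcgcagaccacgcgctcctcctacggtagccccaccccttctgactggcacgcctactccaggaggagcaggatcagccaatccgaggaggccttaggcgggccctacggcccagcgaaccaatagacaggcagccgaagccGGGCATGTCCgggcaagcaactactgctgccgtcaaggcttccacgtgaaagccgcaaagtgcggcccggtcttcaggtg
Gtse1: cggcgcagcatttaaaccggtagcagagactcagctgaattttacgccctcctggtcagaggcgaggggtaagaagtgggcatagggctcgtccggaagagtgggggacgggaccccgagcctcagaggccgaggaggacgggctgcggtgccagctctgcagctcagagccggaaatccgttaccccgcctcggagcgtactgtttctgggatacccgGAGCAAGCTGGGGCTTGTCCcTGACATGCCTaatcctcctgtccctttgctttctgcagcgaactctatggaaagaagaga
Ei24: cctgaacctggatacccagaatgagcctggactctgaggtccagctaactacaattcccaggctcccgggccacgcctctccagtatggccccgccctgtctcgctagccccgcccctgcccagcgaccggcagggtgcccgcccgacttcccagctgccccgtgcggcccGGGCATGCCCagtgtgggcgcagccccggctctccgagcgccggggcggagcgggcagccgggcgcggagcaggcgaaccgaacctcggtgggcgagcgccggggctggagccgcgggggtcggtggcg
Pml: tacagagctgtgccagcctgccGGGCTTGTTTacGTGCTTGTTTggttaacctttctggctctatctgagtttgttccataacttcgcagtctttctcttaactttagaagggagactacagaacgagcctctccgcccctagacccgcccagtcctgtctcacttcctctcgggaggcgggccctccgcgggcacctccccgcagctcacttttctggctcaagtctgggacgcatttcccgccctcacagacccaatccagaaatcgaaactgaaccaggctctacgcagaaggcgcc

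The half-site was GGGCATGTCC in Aen, beginning 30 bases before the annotated start, and GGGCTTGTCC in Gtse1, beginning 21 bases before it. In Ei24 it was GGGCATGCCC, 79 bases before the start, and in Pml it was GGGCTTGTTT, 228 bases before it. The promoters of Perp and Rprm held no exact match in the same window. Thus 4 of 6 promoters held a half-site, against 7.98% of 33465 rat promoters of this length, 6.38% of the 8698 promoters of genes tested here and 4 of 32 promoters of other p53 targets. An exact half-site within 13 bases of another with at most 1 mismatch was found in Gtse1 and in Pml. In Gtse1 the exact half-site has such a copy on either side, GAGCAAGCTG directly before it and TGACATGCCT 1 base after it. In Pml 2 bases separate it from GTGCTTGTTT. At least 1 such pair was in 1% of all promoters, in 0.701% of the promoters of genes tested and in 3 of the 32 promoters of other p53 targets. A match describes letters and not a bound site, and no match says only that these letters are not in this window. Zmat3, Tp53inp1, Ptp4a3 and Tp53i3 were not in the promoter table.

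Tp53inp1 and Aen changed the most. Tp53inp1 encodes a stress protein that aids p53 phosphorylation and binds LC3-family proteins of the autophagosome. Its level was 23.3, 22.5 and 20.9 CPM in Control replicates 1, 2 and 3, and 68.7, 65.3 and 65.9 CPM in STZ replicates 1, 2 and 3. The groups were far apart, and the lowest STZ sample was 2.81 times the highest Control sample. The means were 66.6 ± 1.83 CPM in STZ and 22.2 ± 1.22 in Control (SD, n = 3 each), a 3.01-fold rise with a 95% interval of 2.74 to 3.29. The log2 fold change was 1.59 (SE 0.07, adjusted p = 1.5e-23 from edgeR), which ranked 93 among the 11870 genes tested.

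Aen encodes an exonuclease that degrades DNA during p53-driven apoptosis. It had 28.9, 24.3 and 25.8 CPM in the Control replicates and 76.5, 73.3 and 81.3 CPM in the STZ replicates. Again no sample of 1 group reached the other, with the lowest STZ sample 2.54 times the highest Control sample. The mean was 77.1 ± 4.02 CPM in STZ and 26.3 ± 2.33 CPM in Control (SD, n = 3 each). The fold change of 2.94 had an interval of 2.68 to 3.21, which overlapped that of Tp53inp1, so the order of these 2 genes was not resolved. Its log2 fold change was 1.55 (SE 0.06, adjusted p = 2.3e-23 from edgeR), rank 99. With 307, 268 and 331 reads in Control, counting alone gives a coefficient of variation of 5.75%, and the observed one was 8.86%.

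**Figure D1:**
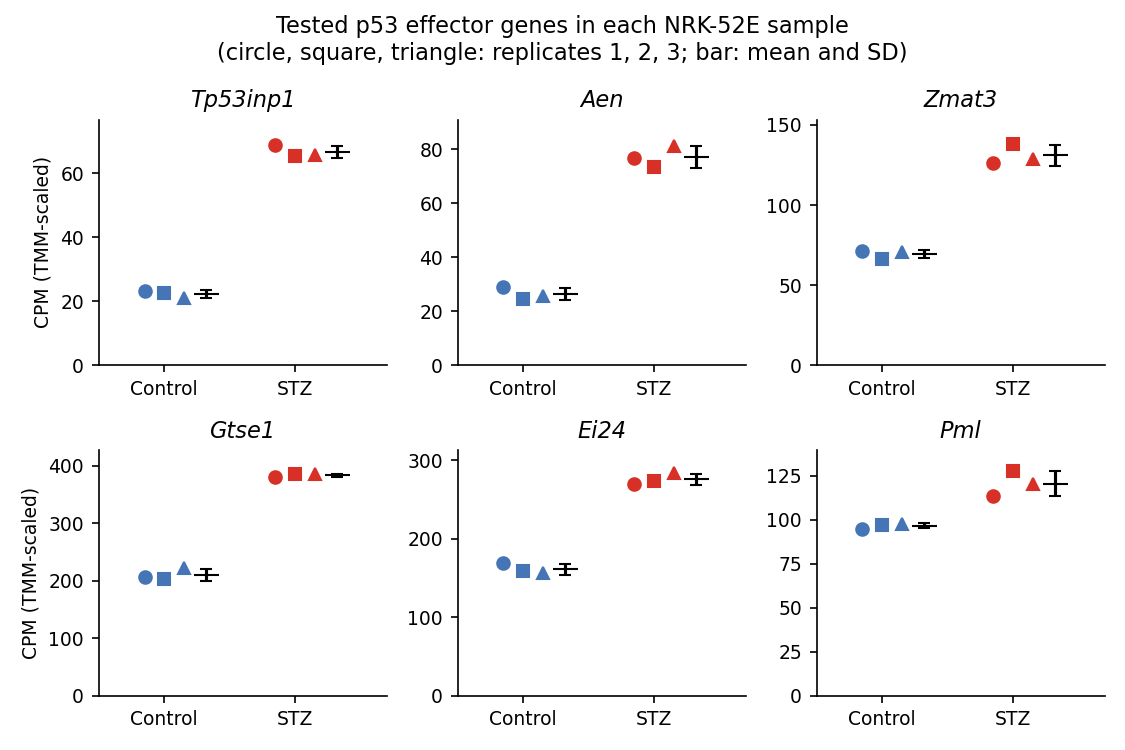
Level of each tested effector gene in CPM (vertical axes, starting at 0 and differing in scale between panels) in the 3 Control and 3 STZ samples, with markers for replicates 1 to 3 and bars for the mean and SD. All STZ points lie above all Control points in the 6 panels, by a wide gap for Tp53inp1 and Aen and by a narrow one for Pml.

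Zmat3, Gtse1 and Ei24 formed a middle group, each rising by somewhat less than the fold-change threshold. Zmat3 encodes a zinc finger protein that binds RNA and affects the stability and splicing of transcripts. It had 71.2, 66.3 and 70.4 CPM in the Control replicates, and 126, 138 and 129 CPM in the STZ replicates, of which the second was the highest. The fold change was 1.89 (95% interval 1.76 to 2.02), or 0.92 on the log2 scale (SE 0.05, adjusted p = 1.1e-19 from edgeR). This interval reached past the 2-fold threshold, so its place under it was not resolved.

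Gtse1 encodes a microtubule-binding protein made in G2 that carries p53 out of the nucleus and dampens its action. Its levels were 207, 203 and 223 CPM in Control and 381, 385 and 385 CPM in STZ. The 3 STZ samples were nearly equal, with a coefficient of variation of 0.69%, below the 1.39% that counting error gives for 5154 reads on average. The rise was 1.82-fold (95% interval 1.72 to 1.92), or 0.86 on the log2 scale (SE 0.04, adjusted p = 4.7e-22 from edgeR).

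Ei24 encodes a membrane protein of the endoplasmic reticulum with roles in apoptosis and autophagy. It was at 169, 158 and 156 CPM in Control and at 270, 274 and 283 CPM in STZ, and the groups did not overlap. The fold change was 1.71 (95% interval 1.62 to 1.81), with a log2 value of 0.78 (SE 0.04, adjusted p = 7.2e-20 from edgeR). The intervals of Zmat3 and Gtse1 overlapped, as did those of Gtse1 and Ei24 and those of Zmat3 and Ei24. The differences between these genes were not tested. None of the 3 intervals reached that of Tp53inp1 or Aen.

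Pml rose the least. Its product is the scaffold of PML nuclear bodies, where p53 and its modifying enzymes meet, and the gene also responds to interferon. The Control samples lay close together at 94.9, 97.2 and 97.7 CPM, while the STZ samples spread from 114 over 120 to 128 CPM. The groups did not overlap, but the lowest STZ sample was only 1.16 times the highest Control sample. The fold change was 1.25 (95% interval 1.17 to 1.33), or 0.32 on the log2 scale (SE 0.05, adjusted p = 3.6e-07 from edgeR). It ranked 1783 among the genes tested and lay inside the range from the 5th to the 95th percentile of all genes, -0.56 to 0.67, whereas the other 5 lay above it. Among the STZ samples, both Pml and Zmat3 were highest in the second and lowest in the first. In bulk RNA a rise in every cell and a larger rise in some cells cannot be told apart.

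The 4 remaining genes were barely read. Perp, a membrane protein of desmosomes with a part in p53-dependent apoptosis, had 1 read in each STZ sample and 0 in each Control sample. Rprm, whose product Reprimo is linked to G2 arrest, had 1 read in the third Control sample and 0 elsewhere. Tp53i3, known in other species as the quinone oxidoreductase PIG3, had 1 read in the third STZ sample and 0 elsewhere. RefSeq lists rat Tp53i3 as a pseudogene. Ptp4a3, the tyrosine phosphatase PRL-3, had 1, 0 and 3 reads in Control and 0, 3 and 1 in STZ, that is 4 in each group.

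A count of 3 reads was taken as the floor and stands for 0.200 to 0.283 CPM in these libraries. A level below it can be missed in any one library, although single reads were counted here. This floor covers counting error only. The reads of Perp did not overlap between the groups, yet no count in it exceeded 1, so no fold is given. When the filter was dropped, none of these genes differed by edgeR, with adjusted p of 0.302 for Perp, 0.536 for Rprm, 0.558 for Tp53i3 and 0.933 for Ptp4a3. A difference was therefore not detectable at this depth, which does not show that there is none.

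The sequence relatives of the effector genes were measured beside them, 15 of which were tested. Tp53inp2, the paralog of Tp53inp1 and likewise an LC3 binder, rose from 154 ± 7.19 to 249 ± 3.65 CPM (SD, n = 3 each), a log2 fold change of 0.69 (adjusted p = 3.8e-18 from edgeR). Isg20, an exonuclease related to Aen, rose by 0.35 on the log2 scale, and Isg20l2 had -0.10, with an interval from below to above 0. Zmat1 and Zmat5 were at 0.22 and -0.21, and neither passed the threshold. The interval of each of these relatives lay wholly below that of the effector gene it resembles.

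Relatives of the barely read genes were often expressed. Of the PRL phosphatases, Ptp4a1 rose from 33.6 ± 3.21 to 41.5 ± 2.07 CPM, 0.29 on the log2 scale, whereas Ptp4a2 fell from 295 ± 9.17 to 270.2 ± 11.9 CPM, a log2 fold change of -0.13 (adjusted p = 4.4e-04 and 0.0062 from edgeR). The difference between these 2 changes was not tested. CNNM proteins bind PRL phosphatases and govern magnesium transport, and of the 3 tested Cnnm3 fell by 0.59 on the log2 scale while Cnnm2 and Cnnm4 were at 0.04 and -0.06 and did not pass.

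Rprml, the relative of Rprm, had 14, 17 and 19 reads in Control and 37, 33 and 41 in STZ. Its log2 fold change of 0.92 had a wide interval of 0.41 to 1.43 (adjusted p = 0.0023 from edgeR). For Tp53i3, the related oxidoreductase-fold gene Vat1 rose by 0.69 on the log2 scale, while Cryz and Mecr were at -0.10 and -0.22 without passing. For Perp, the tetraspan relatives Emp1 and Emp3 rose by 0.17 and 0.28, and Emp2 and Pmp22 did not pass at 0.12 and 0.04.

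**Figure D2:**
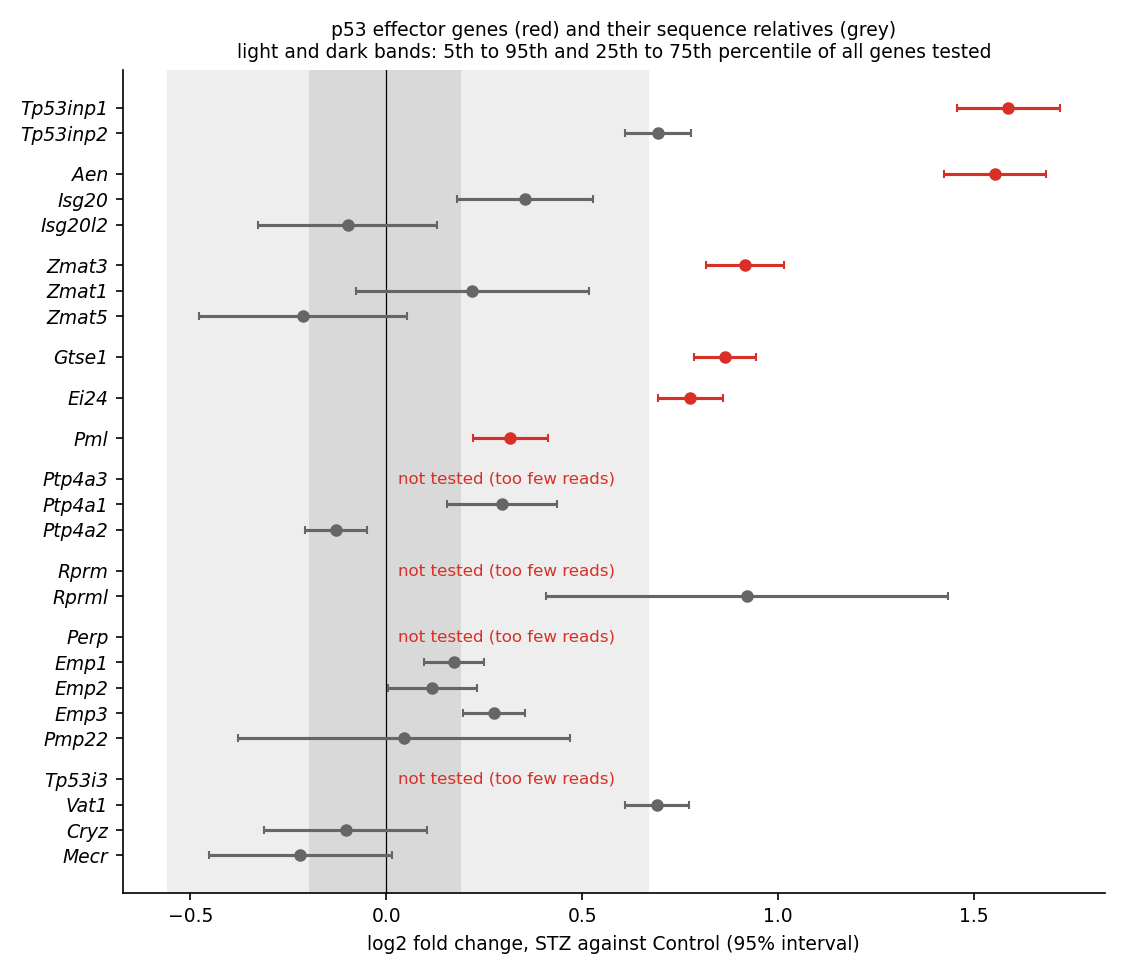
Log2 fold change of STZ against Control (horizontal axis) with its 95% interval for the effector genes (red) and their relatives (grey), over bands for the 5th to 95th and 25th to 75th percentiles of all genes tested. Tp53inp1 at 1.59 and Aen at 1.55 lie to the right of every relative, and 4 effector genes could not be tested.

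The other genes of the pathway were taken from 4 lists of p53 targets chosen by role. Of 38 such genes tested, 26 rose, 4 fell and 8 did not pass, with a median log2 fold change of 0.31. Over all genes tested 25.9% rose and 25.1% fell. Of 8 arrest genes 7 rose. Cdkn1a, which encodes the kinase inhibitor p21, went from 231 ± 4.2 to 1297 ± 23 CPM (SD, n = 3 each), a log2 fold change of 2.49, and Gadd45a had the smallest rise called at 0.34. Of 5 feedback genes 2 rose and 1 fell, led by Mdm2, the ubiquitin ligase of p53, at 1.95, with Rchy1 at -0.16. All 6 BCL2-family genes rose, from 0.23 for Bak1 to 1.20 for Pmaip1. Of 19 genes of repair, metabolism and other roles, 11 rose and 3 fell, from -0.53 for Ddb2, a sensor of damaged DNA, to 1.55 for Phlda3, a brake on AKT. Set in this range, Tp53inp1 and Aen were near Phlda3. Of the 38 targets 5 had a larger log2 fold change than every effector gene, namely Cdkn1a, Mdm2, Btg2 at 1.75, Plk2 at 1.74 and Ccng1 at 1.66.

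The genes whose course over the 6 samples was nearest to that of Tp53inp1, the effector gene with the smallest p, were Tnfrsf22, Phlda3 and Ankrd13d. The measure was the root mean square distance between log2 profiles centred on Control, taken over 9889 named genes with at least 50 normalized counts, and it was 0.036, 0.054 and 0.059. Tnfrsf22, a TNF receptor family gene, went from 61.7 ± 1.9 to 181 ± 2.69 CPM (SD, n = 3 each). Their log2 fold changes were 1.56, 1.55 and 1.60.

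Each effector gene was also set beside genes that share its process. Gtse1 is expressed mainly in G2 of cycling cells, but the 18 G2 and mitosis genes tested went mainly the other way, with 12 lower, 5 higher and a median log2 fold change of -0.21. They ran from -0.56 for Bub1b, a spindle checkpoint kinase, to 0.95 for Ckap2, a microtubule-associated protein, which alone in that list lay above Gtse1. The intervals of Ckap2 and Gtse1 overlapped, and the difference between them was not tested. Kif2c, the microtubule depolymerase that the Gtse1 protein inhibits, fell by 0.17 on the log2 scale. Over all genes tested 25.9% were higher and 25.1% lower.

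Core genes of autophagy, the process in which Tp53inp1 and Ei24 are known to take part, were mostly higher. Of 14 tested 10 rose and 1 fell, against 25.9% and 25.1% of all genes tested, with a median of 0.26. Map1lc3b, which encodes an LC3 protein, rose by 0.58, while Ulk1, the initiating kinase, fell by 0.15. Of 9 genes for PML nuclear body components and their SUMO machinery, 1 rose and 4 fell with a median of -0.03. Sp100 rose by 0.16, and Sumo3 fell by 0.64. Pml rose, then, while most of these genes did not, and of all genes tested 25.9% rose.

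Of 7 interferon response genes tested, 3 rose and 1 fell, with a median log2 fold change of 0.16. Irf7 was at 1.39, and Ifit1 went down from 2.14 ± 0.37 to 1.07 ± 0.08 CPM (SD, n = 3 each). Another 5 of this list had too few reads to test, among them Mx1 and Ifit2. Of 4 desmosome genes tested, related to Perp by function, Jup and Pkp2 rose by 0.14 and 0.31, Pkp4 fell by 0.29, and Dsp was at 0.51 without passing. The shares over all genes tested were 25.9% higher and 25.1% lower. These lists are described by counts only, and no test of a list as a whole was made.

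**Figure D3:**
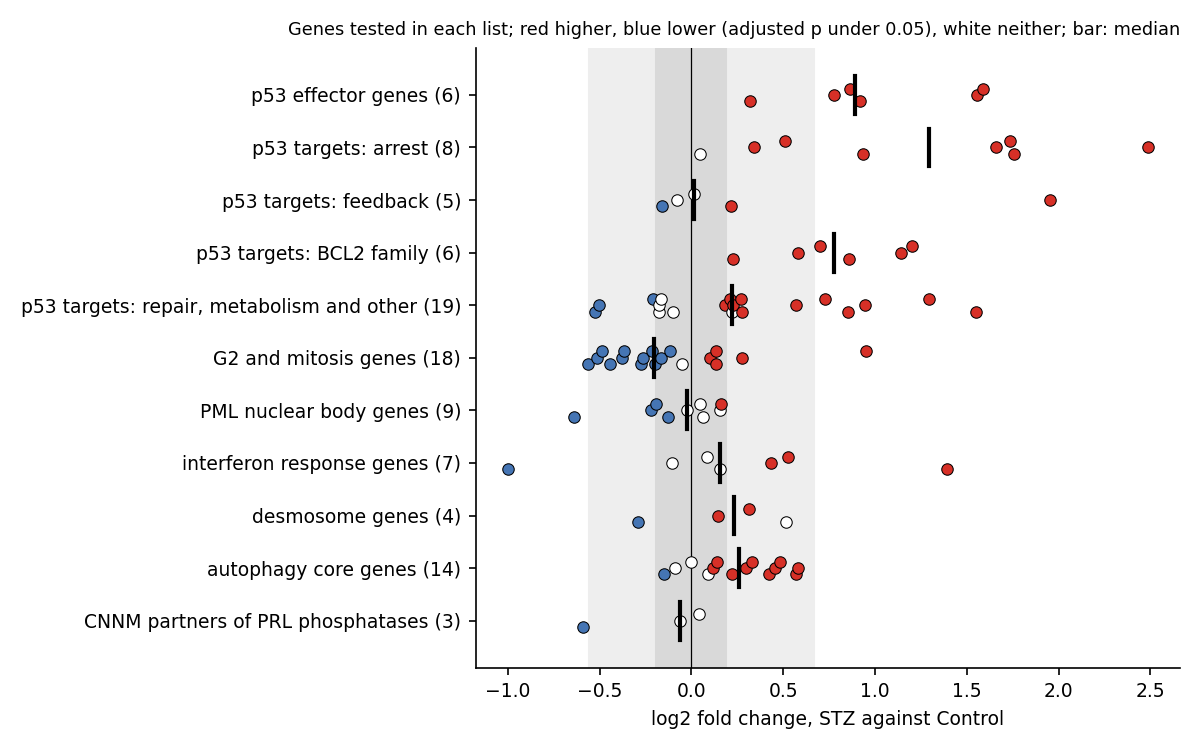
Log2 fold change (horizontal axis) of every tested gene in each list (rows, with the number tested), red where higher, blue where lower and white where the adjusted p missed 0.05, with a bar at the median. The effector genes have a median of 0.89, the arrest genes 1.30 and the G2 and mitosis genes -0.21.

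Genes that flank the 6 expressed effector genes were looked at, 2 tested protein-coding genes on each side in the gene order of the GRCr8 annotation. They were taken by position after the levels of the effector genes had been seen. Of the 24 flanking genes, 6 rose, 9 fell and 9 did not pass, and their median log2 fold change was -0.09. By the same call 25.9% of all genes tested rose and 25.1% fell, so some rising flanking genes are usual. Tp53inp1 had no flanking gene that rose, with Ccne2 at -0.46 and Plekhf2, Ndufaf6 and Ints8 between -0.14 and 0.02. Gtse1 likewise lay among genes at -0.63 to -0.10.

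Aen, Zmat3, Ei24 and Pml each had a flanking gene that rose. Beside Aen, beyond its relative Isg20, the next tested gene was Hapln3, a link protein of the extracellular matrix. Hapln3 had 7.44, 7.09 and 6.15 CPM in Control and 19.8, 20.7 and 20.9 in STZ. The groups did not overlap. Hapln3 had a log2 fold change of 1.58 (SE 0.11, adjusted p = 7e-16 from edgeR), within the interval of Aen, 1.42 to 1.68, while Isg20 between them was at 0.35. On the other side Det1 and Mrps11 fell by 0.28 and 0.17. Near Zmat3, Actrt3 rose by 1.83 on 3 to 5 reads in Control and 14 to 20 in STZ, whereas Mecom, which lies nearer, fell by 0.34. Next to Ei24, Ccdc15 rose by 0.43, Tmem218 fell by 0.87, Chek1 fell by 0.22, and Stt3a at 0.06 did not pass. Beside Pml, Stoml1 and Insyn1 rose by 0.39 and 0.55, both above Pml itself. Their intervals overlapped that of Pml, and the differences from Pml were not tested. No annotated gene overlapped the span of an expressed effector gene in GRCr8.

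**Figure D4:**
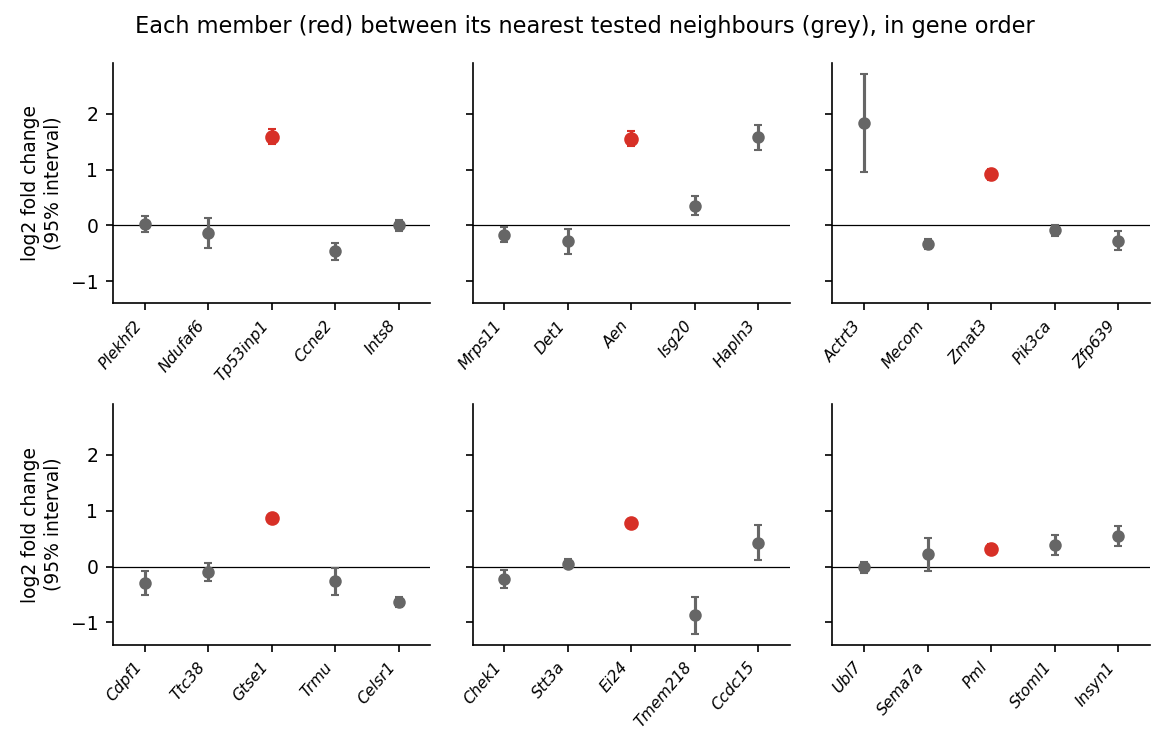
Log2 fold change with its 95% interval (vertical axes) for each expressed effector gene (red) and its 2 nearest tested protein-coding genes on either side (grey), placed in gene order and not to distance. Hapln3, at 1.58, matches Aen in size, and the neighbours of Tp53inp1 and Gtse1 lie near or below 0.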

How the data were processed

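RNA of NRK-52E cells, 3 Control and 3 STZ samples, was sequenced from stranded mRNA libraries. The authors aligned reads with STAR 2.7.10a against Rnor6, assigned those with a unique alignment to genes by featureCounts, and deposited the raw counts without normalization. The annotation release and strand setting are not given in the sources used here. Every column was assigned by its label, and all were used.

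Of the 18930 rows, 11870 genes passed filterByExpr and were then fitted in edgeR 4.0.16 under R 4.3.3. The fit used TMM scaling, the quasi-likelihood test and Benjamini-Hochberg adjustment. Thresholds were an adjusted p under 0.05 and, where stated, an absolute log2 fold change over 1. SEs are the log2 fold change divided by the root of F. CPM used total counts and TMM factors. Log2 profiles used a pseudocount of 1 CPM. Only the edgeR fit was tested on simulated counts, which were drawn with a single dispersion shared by all genes. An exact permutation test of 3 against 3 samples cannot give a two-sided p below 0.1, so none was run. No pair of samples looked like 1 library deposited again, as chi-square divided by its degrees of freedom was at least 1.85 within each group.

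The effector genes and lists were chosen with earlier results of these data known. Named were all effector genes and tested relatives, Cdkn1a and Mdm2, the highest and lowest called gene of each list and the 3 genes nearest to the effector gene with the smallest p. Genes named outside this rule, namely flanking genes, markers, Btg2, Plk2, Ccng1, Kif2c, Cnnm2, Cnnm4, Jup, Dsp, Mx1 and Ifit2, were chosen after their values were seen or by position. Alternatives were DESeq2 1.42.0, limma-voom (limma 3.58.1), 3 scalings, 2 filters, a block on replicate number and leaving out each sample. Sequences and gene order come from RefSeq (GRCr8). Levels were not compared between genes, since transcript lengths were not used here.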

Additional observations from a re-analysis of the deposited data

How the results depend on the processing

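All 6 rises, the absence of a fall and the 2 genes past both thresholds held under all 14 alternatives, with 84 of 84 refits of single effector genes on the same side of the threshold. Log2 fold changes ran from 1.54 to 1.62 for Tp53inp1, 1.50 to 1.62 for Aen, 0.88 to 0.95 for Zmat3, 0.83 to 0.91 for Gtse1, 0.74 to 0.81 for Ei24 and 0.28 to 0.36 for Pml, where the lowest and highest value came from leaving out STZ replicates 2 and 1. The median was 0.86 to 0.92 with one sample left out. Same-numbered samples showed little shared deviation (r = 0.03, -0.04 and 0.10 over 10341 genes, not independent of one another). This does not settle whether they were prepared together, which the sources do not state. Under the replicate block 6 genes rose and the median was 0.89. Perp, Rprm, Tp53i3 and Ptp4a3 got a value only without a filter, and 1 to 8 reads over all samples limit what can be said of them.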
